A study of Mus musculus with 6 samples.

Results

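Transcripts of 10 genes of cholesterol efflux and cholesteryl ester turnover were followed in RAW264.7 cells with and without the prodrug GB2. They were picked out by gene symbol, and all 10 were found among the 28836 genes of the deposited table and passed the expression filter. They comprise the liver X receptors Nr1h3 and Nr1h2, the exporters Abca1 and Abcg1, the lipid acceptor Apoe, the ester hydrolases Nceh1 and Lipa, the esterifying enzyme Soat1, and the lysosomal sterol carriers Npc1 and Npc2.

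RNA was sequenced from 3 untreated and 3 GB2-treated libraries of RAW264.7, a single mouse macrophage-like line derived from a virus-induced tumour. GB2 joins the STING agonist MSA-2 to artesunate, which the study used to inhibit the myeloid receptor TREM2, through a disulfide that glutathione cleaves. The labels name no dose, exposure time or genetic change, although the study gives a dose and time for its transwell treatment. The study describes macrophages grown beneath tumour cells in a transwell and does not say outright whether the untreated cells shared that set-up. The study calls its replicates biological, and the labels do not say how they were separated, so the p-values rest on the spread among libraries.

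Macrophages take up lipoproteins and release their cholesterol in lysosomes, where LIPA hydrolyses the esters and NPC2 passes the sterol to the membrane protein NPC1 for export. Surplus cholesterol is esterified in the endoplasmic reticulum by SOAT1 and stored in droplets, and NCEH1 is a hydrolase that frees it again. Oxysterols activate the liver X receptors (LXR), nuclear receptors that pair with RXR and induce ABCA1, ABCG1 and APOE, through which cholesterol leaves the cell for lipid-poor apolipoproteins and HDL.

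Each library held between 62660734 and 77337345 estimated counts, so even the least counted value of a member, Nr1h3 in GB2-treated replicate 1, rested on 354 counts. All 7 macrophage markers were detected in every library, with a summed level of 14571.67 to 15119.35 FPKM in the untreated and 6973.25 to 8061.89 FPKM in the GB2-treated libraries. Lyz2 made up most of that sum and fell to 50.5% of its untreated level. Csf1r fell to 37.3%, Cd68 to 45.9%, Adgre1 to 58.3% and Spi1 to 63.7%, and for none of these markers did the groups overlap. By contrast, Ptprc averaged 18.2 ± 1.24 and 18.7 ± 1.06 FPKM (SD, n = 3 each), with overlap. Itgam rose, from 157 ± 2.79 to 202 ± 5.57 FPKM (SD, n = 3 each). FPKM relates counts to transcript length and library total. GB2-treated replicates 2 and 3 stood apart, because all 12 hepatocyte markers were higher there than in the other 4 libraries. Their summed level was 578.36 and 558.78 FPKM, against 6.27 in GB2-treated replicate 1 and 2.13 to 2.67 in untreated cells. Markers of epithelium (6 of 6), fibroblasts (6 of 6), endothelium (4 of 4), skeletal muscle (4 of 4) and red cells (5 of 5) were highest in the same pair of libraries. Melanocyte markers summed to 0.07 to 0.29 FPKM in every library, and those of tissue-resident macrophages, also highest in that pair (6 of 6), reached at most 1.09. For this reason changes and ratios, and some list medians and counts, are also given with GB2-treated replicate 1 as the lone treated library. That library is then assumed to vary as the untreated libraries do.

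Changes are log2 values of GB2-treated over untreated with a standard error, from edgeR's quasi-likelihood test with Benjamini-Hochberg adjustment (FDR) over 17124 genes. A gene is said to have risen or fallen where its FDR was below 0.05, and is called where its absolute log2 change was also at least 1. By FDR alone 2 members were higher (background 26.8% of all genes tested) and 7 were lower (background 29.6%). With the fold threshold 2 were called higher, Abca1 and Apoe (background 13.4%), and 2 lower, Nceh1 and Lipa (background 7.73%). The median log2 change of the members was -0.69, and that of all genes tested was 0.01. The FPKM ranges of the groups did not overlap for 8 members. Abca1 was the member lying higher (background 27.4% of 17108 gene symbols), and 7 lay lower (background 34.5%). Without GB2-treated replicates 2 and 3, Abca1 was called higher (background 7.85%) and Nceh1, Lipa and Nr1h3 lower (background 7.89%), with a member median of -0.55. In bulk RNA, fewer cells of a type and less RNA per cell cannot be told apart.

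**Figure D1:**
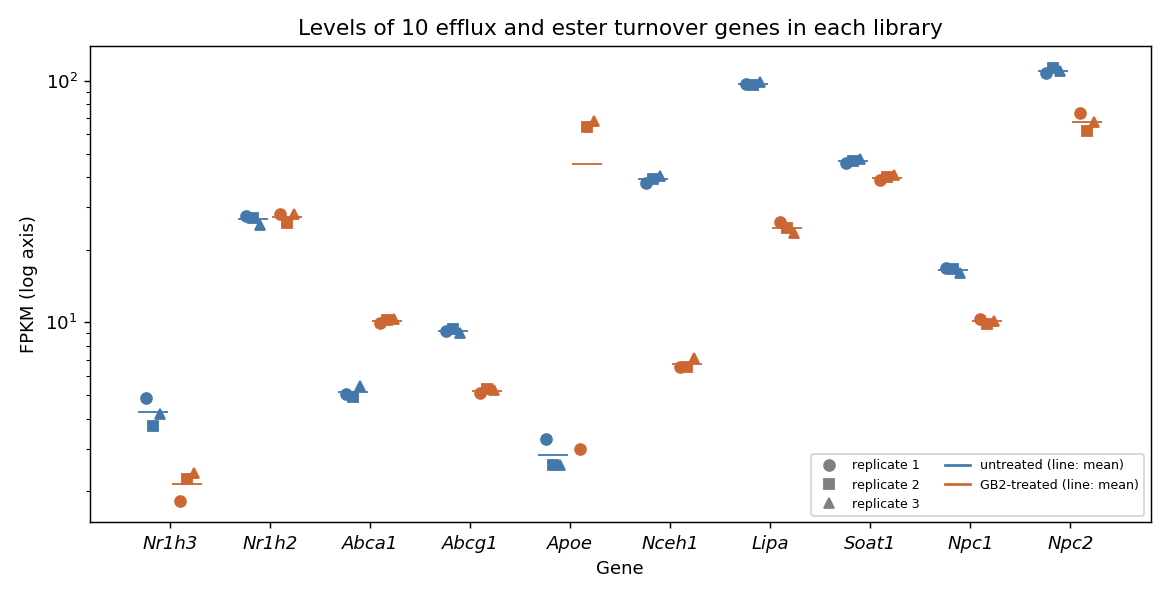
Level of each gene in FPKM on a log axis, with circles, squares and triangles for replicates 1, 2 and 3, blue for untreated, orange for GB2-treated and lines for group means. The GB2-treated Apoe points split into 2.99 and a pair at 64.33 and 68.33 FPKM, whereas for the other genes the 3 treated libraries lie close together.

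Of the LXR genes, Nr1h3 fell and Nr1h2 did not pass the test. Nr1h3 (ENSMUSG00000002108, mm10 chr2:91184061-91202834, minus strand) encodes LXRα, the isoform abundant in macrophages and liver. Its level was 4.86, 3.72 and 4.19 FPKM in untreated replicates 1, 2 and 3, and 1.83, 2.25 and 2.37 FPKM in GB2-treated replicates 1, 2 and 3. Every treated library lay below every untreated one. Nr1h3 fell by 0.96 ± 0.15 on the log2 scale (SE, edgeR FDR = 0.00122), to 51.5% of the untreated level and just short of the fold threshold. It was called lower at -1.12 with GB2-treated replicate 1 alone (edgeR FDR = 0.00148) and at -1.06 when untreated replicate 2, its lowest untreated library, was left out.

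Nr1h2 (ENSMUSG00000060601, chr7:44549616-44553949, minus strand) encodes LXRβ, which most tissues express. It stood at 27.62, 27.09 and 25.31 FPKM in untreated and at 28.03, 25.81 and 28.16 FPKM in GB2-treated cells, and these ranges overlapped. The log2 change was 0.05 ± 0.05 (SE, edgeR FDR = 0.397), with a 95% interval of -0.04 to 0.15. It was 0.15 with GB2-treated replicate 1 alone (edgeR FDR = 0.144) and -0.01 without untreated replicate 3.

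Within a library, Nr1h2 exceeded Nr1h3 by a ratio of 5.68, 7.28 and 6.04 in untreated cells and 15.3, 11.5 and 11.9 in GB2-treated cells. The ratio was higher in every treated library, by 2.03-fold on average. This and the other 3 ratios of members were compared by a two-sided exact permutation test, whose smallest p with 3 against 3 libraries is 0.1, so none could pass 0.05. Here the log2 difference was 1.02, and 1.28 with GB2-treated replicate 1 alone, and p was 0.1 (0.133 adjusted over 4 ratios).

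None of the 15 LXR partners, corepressors and coactivators was called in either direction, and by FDR alone 5 were higher (background 26.8%) and 8 lower (background 29.6%). Their median log2 change was -0.30. With GB2-treated replicate 1 alone Hdac3 was called higher and Rxra lower. The most abundant were Tbl1x, a corepressor subunit, which rose from 16.05 to 16.84 FPKM in untreated cells to 20.05 to 20.39 (log2 0.32), and Ncoa3, a coactivator, which fell from 20.40 to 21.01 FPKM to 15.63 to 15.76 (log2 -0.37). Outside the naming rule, and chosen after its values were seen, Rxra encodes the LXR partner RXRα. Its level was 2.83, 2.52 and 2.33 FPKM in untreated and 0.77, 1.72 and 1.84 FPKM in GB2-treated cells, lowest in the library with few hepatocyte transcripts. Its log2 change was -0.81 (edgeR FDR = 0.0493), and -1.65 with GB2-treated replicate 1 alone, where it was called lower.

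The pair of exporters moved in opposite directions. Abca1 (ENSMUSG00000015243, chr4:53030787-53159895, minus strand) loads cholesterol and phospholipid onto lipid-poor apolipoproteins. Its level was 5.05, 4.93 and 5.43 FPKM in untreated and 9.91, 10.26 and 10.28 FPKM in GB2-treated cells, with no overlap. It rose 2.00-fold (log2 1.00 ± 0.05, SE, edgeR FDR = 1.73e-06), and in GB2-treated replicate 1 alone the log2 change was 1.03. Its FDR was below 0.05 in all 16 alternative settings, but its change, 0.86 to 1.06, straddled the fold threshold, so that it was called in 8 of them. Among the single libraries, leaving out untreated replicate 1 (0.97), untreated replicate 2 (0.96) or GB2-treated replicate 1 (0.99) ended the call.

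Abcg1 (ENSMUSG00000024030, chr17:31057675-31117988, plus strand) passes cholesterol to HDL particles and is, like Abca1, a textbook LXR target. It stood at 9.24, 9.41 and 9.02 FPKM in untreated and 5.11, 5.29 and 5.27 FPKM in GB2-treated cells, and again the groups did not overlap. Abcg1 fell by 0.80 ± 0.04 on the log2 scale (SE, edgeR FDR = 3.53e-06), to 57.3% of the untreated level. With GB2-treated replicate 1 alone it was -0.77, so each exporter kept its own direction in the treated library with few hepatocyte transcripts.

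The order of the exporters was thereby turned. Abca1 was at 0.547, 0.524 and 0.602 times the level of Abcg1 in untreated replicates 1, 2 and 3 and at 1.94, 1.94 and 1.95 times in the treated ones. The difference was 1.80 on the log2 scale, also with GB2-treated replicate 1 alone (exact permutation p = 0.1, the smallest possible, and 0.133 adjusted over 4 ratios).

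**Figure D2:**
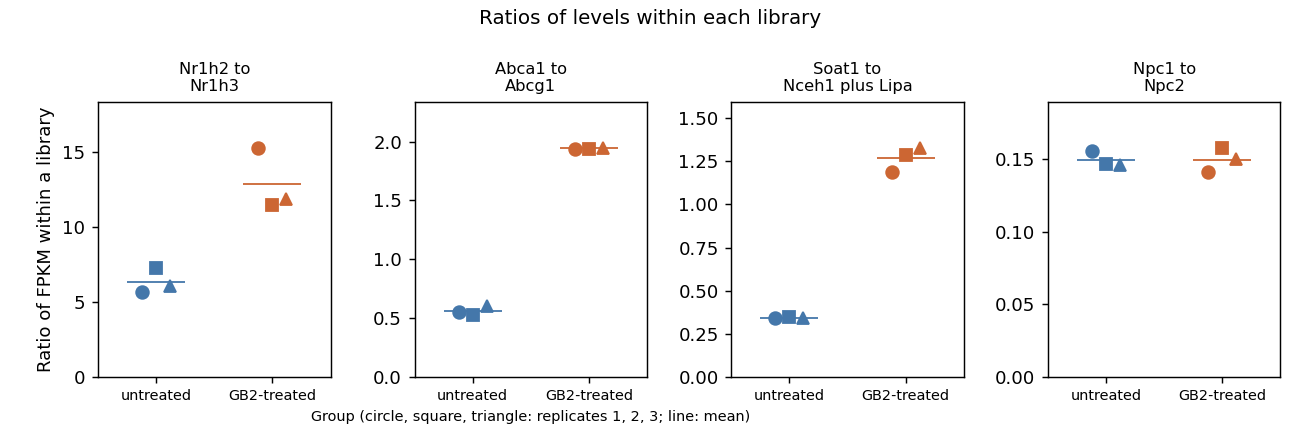
Ratio of FPKM values within each library for 4 pairs of genes, with circles, squares and triangles for replicates 1, 2 and 3, blue for untreated, orange for GB2-treated and lines for means, each axis starting at 0. The Abca1 to Abcg1 ratio moved from 0.524 to 0.602 up to 1.94 to 1.95, whereas Npc1 to Npc2 stayed between 0.141 and 0.158 in all 6 libraries.

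Promoter letters are shown for Abca1 because its segment before the start site holds the element through which LXR is known to act. The sequence is from RefSeq on GRCm38.p6, chr4:53159896-53160055, minus strand, and ends at the base before the transcription start. Capitals mark CACGTG, an E-box, and TGACCG and TAACC spaced by 4 bases, which together form the LXR element described for this promoter.
Abca1: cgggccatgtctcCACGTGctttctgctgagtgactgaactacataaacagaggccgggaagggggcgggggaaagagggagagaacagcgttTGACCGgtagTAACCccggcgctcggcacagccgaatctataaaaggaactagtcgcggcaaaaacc
The E-box begins 147 bases and the LXR element 67 bases before the start. Promoter windows of 300 bases (250 before and 50 after each start) were at hand for 8 members, 11 windows in all. Abcg1 and Npc1 were not among them. CACGTG on either strand occurred in the windows of Abca1 and Nceh1, and in 7.15% of the 32851 windows of all genes. TGACCG and TAACC in this spacing, searched for after the Abca1 letters had been read, occurred in 0.0122% of windows. A direct repeat of the general LXR form, in which each unit was AGGTCA or its known variant GGGTCA, or else AGTTCA or its known variant GGTTCA, with 4 bases between units, was found in no member and in 0.0822% of windows. These matches describe the letters only.

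The 5 genes whose log2(FPKM + 1) was most like that of Abca1 over the 6 libraries, among 7735 with at least 5 FPKM in some library, were Slc7a11, Jarid2, Pvr, Tet2 and Setd5 (Pearson r 0.9993 to 0.9997). The profiles share all libraries and each has a step between the groups. Slc7a11, the cystine transporter subunit, ran at 5.04 to 5.47 FPKM in untreated and 9.39 to 9.66 FPKM in GB2-treated cells, a range close to that of Abca1 itself.

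Of the other sterol and lipid exporters, 6 of 8 were tested, of which 1 was called higher (background 13.4%) and 0 lower (background 7.73%). The called gene, Abcg4, did not exceed 0.36 FPKM in any library. Abcg4 was again called higher with GB2-treated replicate 1 alone, where Abca5, at most 0.14 FPKM, was called lower. The most abundant, Scarb1, a receptor that exchanges cholesterol with HDL, fell from 14.06 to 15.79 FPKM to 10.97 to 11.68 (log2 -0.41, edgeR FDR = 0.00044). Abca7, a phospholipid exporter, was at 12.01 to 13.14 FPKM in untreated and 12.44 to 13.66 FPKM in treated cells, with overlap.

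Apoe was high in 2 of the 3 treated libraries and at the untreated level in the third. Apoe (ENSMUSG00000002985, chr7:19696109-19699188, minus strand) encodes apolipoprotein E, a lipid carrier secreted by macrophages and in bulk by the liver. Its level was 3.30, 2.57 and 2.58 FPKM in untreated replicates 1, 2 and 3, and 2.99 FPKM in GB2-treated replicate 1, which lay within the untreated range. GB2-treated replicates 2 and 3 had 64.33 and 68.33 FPKM. The log2 change over all libraries was 4.01 ± 0.98 (SE, edgeR FDR = 0.0104), and with GB2-treated replicate 1 alone it was 0.17 ± 0.19 (FDR = 0.525). Leaving out any single untreated replicate also ended the call (FDR 0.0627 for replicate 1, 0.0704 for replicate 2 and 0.0707 for replicate 3).

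The libraries high in Apoe were those high in hepatocyte markers. Alb, the plasma protein albumin, was listed at 0 in all untreated libraries and GB2-treated replicate 1, and at 323.35 and 324.71 FPKM in GB2-treated replicates 2 and 3. Apoe stood at 0.199 and 0.210 times the Alb level in these libraries. The part of hepatocyte transcripts in the Apoe result was not tested.

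The neighbours of Apoe in its chromosome 7 cluster divided. Apoc1, which encodes a small lipoprotein component, was listed at 0 in the 4 libraries low in Apoe. It was at 8.61 and 9.11 FPKM in GB2-treated replicates 2 and 3. Apoc4, lower in level, was likewise listed at 0 in the same 4 libraries and at 0.88 and 0.67 FPKM in that pair. Apoc2, the activator of lipoprotein lipase, went the other way, with 1.73, 1.82 and 1.73 FPKM in untreated and 0.44, 0.51 and 1.34 FPKM in GB2-treated cells. Its log2 change of -1.17 missed the threshold (edgeR FDR = 0.0533), and it was called lower at -1.88 with GB2-treated replicate 1 alone. Apoc2 shares 79.5% of its exonic bases with the overlapping model Gm44805 on its own strand, so its counts are uncertain.

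**Figure D3:**
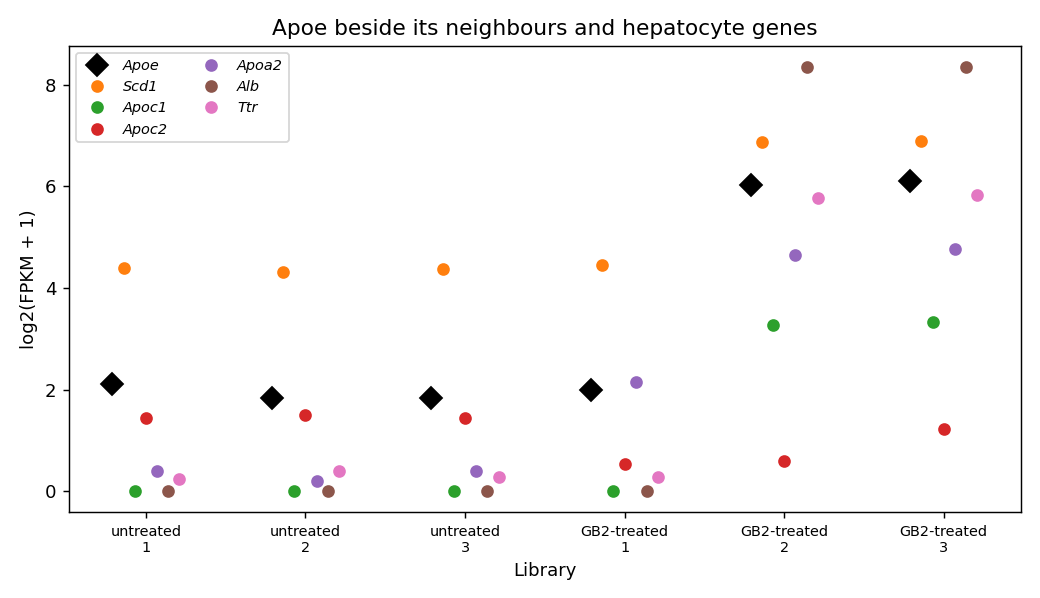
Levels as log2(FPKM + 1) in each of the 6 libraries for Apoe (black diamonds), the LXR target Scd1, the apolipoprotein genes Apoc1, Apoc2 and Apoa2, and the hepatocyte markers Alb and Ttr, set slightly apart for legibility. Apoe, Scd1, Apoc1, Apoa2, Alb and Ttr are highest in GB2-treated replicates 2 and 3, while Apoc2 is lower in the 3 treated libraries than in the untreated ones.

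The 5 genes most like Apoe in profile, by the measure used for Abca1, were Azgp1, Ambp, Nppa, Scd1 and Pzp (Pearson r 0.9991 to 0.9997). Each has a step between GB2-treated replicates 2 and 3 and the other 4 libraries. Ambp, which encodes a plasma protein precursor made by the liver, was at 1.07 to 1.22 FPKM in the 4 libraries low in Apoe and at 16.54 and 17.64 FPKM in the other two.

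Other apolipoprotein and lipoprotein remodelling genes were in the table in full (16 of 16), but only 9 passed the expression filter. Of these 6 were called higher (background 13.4%) and 1 lower (background 7.73%) with all libraries. The median log2 change was 2.12, and -0.14 with GB2-treated replicate 1 alone. Apob, the structural protein of VLDL, was at 0.08 to 0.09 FPKM in the 4 other libraries and at 3.72 and 3.32 FPKM in GB2-treated replicates 2 and 3. Apoa5 and Lcat were likewise highest in those libraries, at 3.35 and 2.99 FPKM and at 2.17 and 2.66 FPKM. Apoa2, an HDL protein, exceeded the untreated cells in GB2-treated replicate 1 also, with 3.41 FPKM against 0.15 to 0.31, and was called higher there (log2 3.68), as was Lpl. GB2-treated replicates 2 and 3 held 24.12 and 26.39 FPKM of it.

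The other LXR target genes were mixed. Of 17 genes, 14 were tested, of which 4 were called higher (background 13.4%) and 3 lower (background 7.73%). Their median log2 change was 0.24. The 4 called higher were Scd1, Scd2, Lpl and Mertk. With GB2-treated replicate 1 alone the log2 changes of these were 0.18, 1.56, 1.58 and 0.22, in that order. Mertk did not exceed 0.44 FPKM in any library. Scd1, a fatty acid desaturase, split as Apoe did, with 19.00 to 20.01 FPKM in untreated cells, 20.97 in GB2-treated replicate 1 and 115.53 and 118.12 in replicates 2 and 3. Lpl, which hydrolyses lipoprotein triglycerides, rose in all treated libraries, from 17.62 to 19.34 FPKM to 51.42 to 55.89 (log2 1.58 ± 0.05, SE, edgeR FDR = 3.47e-07). Smpdl3a, a phosphodiesterase, fell from 55.95 to 57.20 FPKM to 13.83 to 15.69 (log2 -1.93 ± 0.05). Fasn, fatty acid synthase, fell from 30.83 to 33.20 FPKM to 6.75 in GB2-treated replicate 1 and 12.29 and 12.26 in the others (log2 -1.61 ± 0.21). Hence genes commonly listed as LXR targets, Abca1 and Abcg1 among them, lay on both sides of no change.

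Among the members, the largest falls were those of the ester hydrolases Nceh1 and Lipa. Nceh1 (ENSMUSG00000027698, chr3:27182965-27284608, plus strand) encodes neutral cholesterol ester hydrolase, a membrane enzyme of the endoplasmic reticulum. Its level was 37.68, 39.39 and 40.32 FPKM in untreated and 6.53, 6.51 and 7.13 FPKM in GB2-treated cells. The untreated libraries were all above 37 and the treated ones all below 8 FPKM. The log2 change was -2.52 ± 0.04 (SE, edgeR FDR = 3.75e-08) and -2.50 with GB2-treated replicate 1 alone, so Nceh1 retained 17.4% of its untreated level.

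The Nceh1 start is shown because it was the other member with the E-box, here followed by A as in the extended element that MiT/TFE factors such as TFEB bind in lysosomal genes. The 30 bases lie at chr3:27182966-27182995 on the plus strand of GRCm38.p6 (RefSeq). Capitals mark the E-box.
Nceh1: cctgaggaggaaCACGTGaaacagcagctg
These letters stop short of the RefSeq start. The E-box begins 26 bases before that start, inside the first exon of the deposited gene model. The extended forms TCACGTG or CACGTGA, which contain the E-box, occurred in 3.77% of all windows and in no other member. The 6 letters CACGTG thus lay near the start of both Abca1 and Nceh1, in the extended form only for Nceh1. Binding to these letters was not tested.

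Lipa (ENSMUSG00000024781, chr19:34492318-34527474, minus strand) encodes lysosomal acid lipase, which frees cholesterol from lipoprotein esters after uptake. It stood at 96.86, 95.70 and 98.40 FPKM in untreated and 26.00, 24.48 and 23.45 FPKM in GB2-treated cells, with no overlap. The log2 change was -1.96 ± 0.05 (SE, edgeR FDR = 1.98e-07), or 25.7% of the untreated level, and -1.82 with GB2-treated replicate 1 alone. Nceh1 and Lipa were called lower in all 16 alternative settings. The ratio of Lipa to Nceh1 was 2.43 to 2.57 in untreated and 3.29 to 3.98 in GB2-treated libraries, since Nceh1 lost the larger share.

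**Figure D4:**
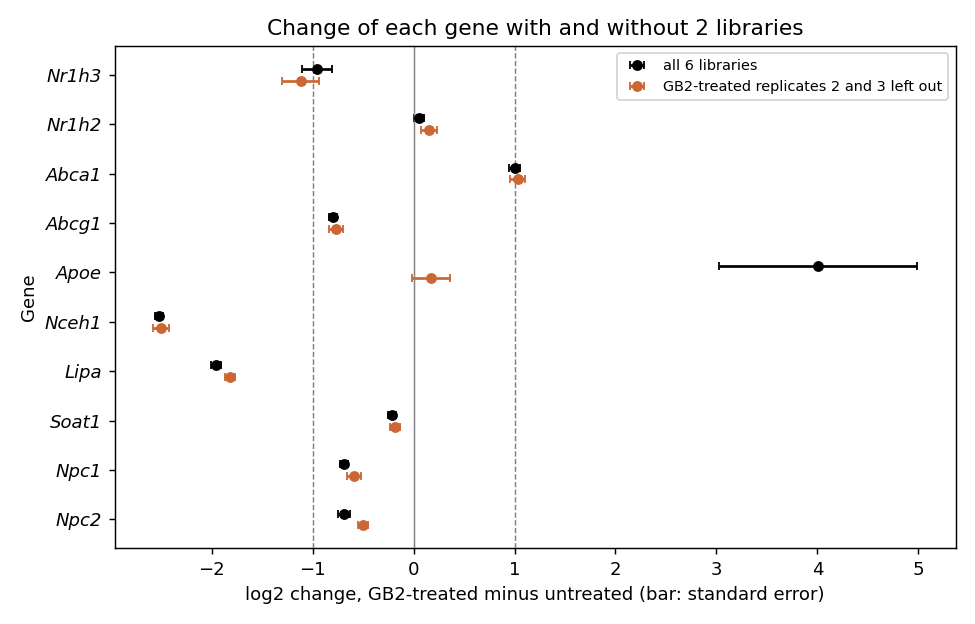
Log2 change of each gene, GB2-treated minus untreated, with its standard error, for all 6 libraries (black) and with GB2-treated replicates 2 and 3 left out (orange), and dashed lines at the fold threshold. Nceh1 (-2.52 and -2.50) and Lipa (-1.96 and -1.82) lie farthest to the left in both, while Apoe moves from 4.01 to 0.17.

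The opposing enzyme changed far less. Soat1 (ENSMUSG00000026600, chr1:156424525-156474331, minus strand) encodes the sterol O-acyltransferase that esterifies cholesterol in macrophages. Its level was 45.85, 46.66 and 47.35 FPKM in untreated and 38.75, 39.87 and 40.73 FPKM in GB2-treated cells. The groups did not overlap, and Soat1 fell by 0.21 ± 0.04 on the log2 scale (SE, edgeR FDR = 0.00181), to 86.4% of the untreated level and well inside the fold threshold. With GB2-treated replicate 1 alone it was -0.18 (FDR = 0.0131).

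Because the hydrolases fell so much more, Soat1 went from 0.341, 0.345 and 0.341 times the summed level of Nceh1 and Lipa in untreated cells to 1.19, 1.29 and 1.33 times in GB2-treated cells. This was 3.70-fold, or 1.89 on the log2 scale (1.80 with GB2-treated replicate 1 alone), with no overlap (exact permutation p = 0.1, 0.133 adjusted over 4 ratios). Transcripts of the hydrolases summed to 135 to 139 FPKM in untreated and 30.6 to 32.5 FPKM in treated libraries. Ratios of transcripts say nothing of enzyme activity, which was not measured here.

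Soat2, the second acyltransferase, known chiefly from intestine and liver, is described here although the naming rule did not reach it, and was chosen after its values were seen. It was at 7.86, 6.75 and 7.72 FPKM in untreated and 29.01, 23.98 and 26.80 FPKM in GB2-treated cells. Soat2 rose by 1.85 ± 0.08 on the log2 scale (SE, edgeR FDR = 1.85e-06), and by 2.04 with GB2-treated replicate 1 alone, the treated library in which it was highest. Soat1 and Soat2 together summed to 53.4 to 55.1 FPKM in untreated and 63.8 to 67.8 FPKM in treated cells, so that their sum was higher although Soat1 fell. The share of Soat2 relative to Soat1 went from 0.145 to 0.171 up to 0.601 to 0.749.

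The list of other ester synthesis and hydrolysis genes, to which Soat2 belongs, held 10 genes. Of 8 tested, 7 were called higher (background 13.4%) and 0 lower (background 7.73%), with a median log2 change of 2.60. With GB2-treated replicate 1 alone the list had a median of 0.42. Its carboxylesterases are made chiefly by the liver. Ces1d was at 0.21 to 0.45 FPKM in the 4 libraries with few hepatocyte transcripts while GB2-treated replicates 2 and 3 held 3.23 and 3.39 FPKM. Aadac, a liver deacetylase, was at 0.40 to 0.59 FPKM in the former and at 4.02 and 4.13 FPKM in the latter. Ces1f was at 0.50 to 0.60 FPKM in untreated cells, 1.16 in GB2-treated replicate 1 and 3.61 and 2.93 in replicates 2 and 3. Its log2 change was 2.21, and 1.13 with GB2-treated replicate 1 alone, where hepatocyte markers summed to 6.27 FPKM. Ces1d, Aadac and Ces1f were highest in the libraries high in those markers, and the part of hepatocyte transcripts was not tested.

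The NPC proteins fell by nearly equal amounts. Npc1 (ENSMUSG00000024413, chr18:12189692-12236400, minus strand) encodes the membrane protein that exports cholesterol from late endosomes and lysosomes. Its level was 16.79, 16.66 and 16.02 FPKM in untreated and 10.35, 9.82 and 10.13 FPKM in GB2-treated cells, without overlap. The log2 change was -0.69 ± 0.04 (SE, edgeR FDR = 6.43e-06) and -0.59 with GB2-treated replicate 1 alone. Rmc1 on the opposite strand covers 4.5% of the exonic bases of Npc1.

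Npc2 (ENSMUSG00000021242, chr12:84754562-84773152, minus strand) encodes the soluble carrier that hands cholesterol to NPC1, and it was the most abundant member in untreated cells. It stood at 107.41, 113.42 and 109.98 FPKM in untreated and 73.60, 62.09 and 67.50 FPKM in GB2-treated cells. The log2 change was -0.69 ± 0.06 (SE, edgeR FDR = 6e-05) and -0.50 with GB2-treated replicate 1, the highest of the treated libraries. Both genes retained about the same share of their untreated level, 62.0% for Npc1 and 62.2% for Npc2, and neither was called in any of the 16 alternative settings. Their FDR was below 0.05 in all of them.

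The ratio of Npc1 to Npc2 was 0.156, 0.147 and 0.146 in untreated and 0.141, 0.158 and 0.150 in GB2-treated cells. The log2 difference was -0.09 with GB2-treated replicate 1 alone. The ranges overlapped (exact permutation p = 1), unlike those of the other 3 ratios.

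Other intracellular sterol transport genes were tested in 27 cases, with a median log2 change of -0.04. Of these, 2 were called higher (background 13.4%) and 1 lower (background 7.73%). By FDR alone 4 were higher (background 26.8%) and 12 lower (background 29.6%). With GB2-treated replicate 1 alone 1 was called higher, Gramd1a, and 1 lower, Scarb2. Gramd1a, a tether that carries cholesterol from the plasma membrane to the endoplasmic reticulum, rose from 17.55 to 19.49 FPKM to 46.07 to 49.15 (log2 1.37 ± 0.05, SE, edgeR FDR = 9.86e-07). Scarb2, a lysosomal membrane protein with a sterol-conducting tunnel, fell from 13.51 to 14.37 FPKM to 6.13 to 6.58 (log2 -1.12 ± 0.04). Cav1, the caveolar coat protein, was at most 0.11 FPKM outside GB2-treated replicates 2 and 3, where it was at 5.67 and 8.57 FPKM, as were endothelial markers at a sum of 6.83 and 10.21.

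Genes that make or break down the oxysterol ligands of LXR passed the filter in 4 of 8 cases, with a median log2 change of -0.79. Of these, 0 were called higher (background 13.4%) and 1 lower (background 7.73%). With GB2-treated replicate 1 alone the log2 changes of Hsd3b7 and Sult2b1 were -1.04 and -1.95, but Sult2b1 did not exceed 0.24 FPKM in any library. Hsd3b7, a bile acid pathway enzyme, was at 14.66 to 15.54 FPKM in untreated and at 6.96, 6.76 and 3.36 FPKM in GB2-treated cells (log2 -1.39 ± 0.26, SE, edgeR FDR = 0.00273). It shares 62.4% of its exonic bases with 9430064I24Rik on the opposite strand and 62.0% with Gm49388 on its own, so its counts are uncertain. The 25-hydroxylase gene Ch25h did not exceed 0.11 FPKM in any library. Cyp27a1, outside the naming rule but the most abundant of the list, fell from 23.48 to 24.02 FPKM to 14.75 to 15.32. Its log2 change was -0.65 (edgeR FDR = 5.96e-06), and -0.60 with GB2-treated replicate 1 alone. By FDR alone 0 genes of the list were higher (background 26.8%) and 2 lower (background 29.6%).

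Among 10 sterol and lysosome regulators, 2 were called higher (background 13.4%) and 1 lower (background 7.73%), with a median log2 change of 0.02. Tfeb, the transcription factor for lysosomal genes, fell from 2.83 to 3.01 FPKM to 1.15 to 1.34 (log2 -1.22 ± 0.09, SE, edgeR FDR = 2.31e-05). Ppard, a lipid-activated nuclear receptor, rose from 4.61 to 5.47 FPKM to 15.02 to 15.39 (log2 1.60 ± 0.07). The further call, Pparg, was listed at 0 in all untreated libraries and at 0.04, 0.77 and 0.63 FPKM in treated ones. Ppard was called higher and Tfeb lower with GB2-treated replicate 1 alone as well, where Pparg did not pass the filter.

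Of the 8 lipoprotein uptake receptors, 2 were called higher (background 13.4%) and 0 lower (background 7.73%). The median log2 change was 0.08, and 0.17 with GB2-treated replicate 1 alone. Cd36, a scavenger receptor for oxidised lipoproteins, was at 1.26 to 1.54 FPKM in untreated cells, 2.19 in GB2-treated replicate 1 and 6.73 and 8.36 in replicates 2 and 3. Its log2 change was 2.06 with all libraries and 0.74 with GB2-treated replicate 1 alone (edgeR FDR = 0.00783). The other call, Vldlr, did not exceed 0.74 FPKM.

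**Figure D5:**
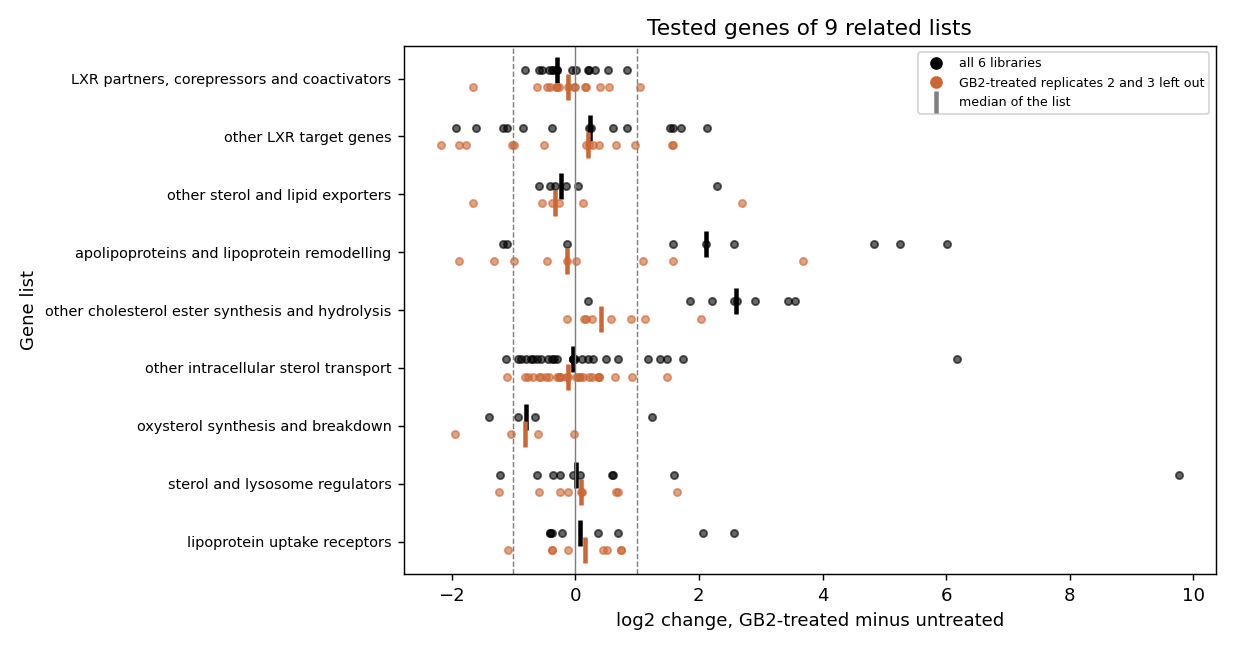
Log2 change of every tested gene in 9 related gene lists, GB2-treated minus untreated, for all 6 libraries (black) and with GB2-treated replicates 2 and 3 left out (orange), with bars at each list's median and dashed lines at the fold threshold. The medians of the apolipoprotein list (2.12 and -0.14) and of the ester synthesis and hydrolysis list (2.60 and 0.42) move most between the fits, and the point farthest to the right is Pparg, listed at 0 in untreated cells.

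Over all 9 lists, 95 of 110 distinct genes in the table were tested, of which 22 were called higher (background 13.4% of all genes tested) and 6 lower (background 7.73%). With GB2-treated replicate 1 alone, 9 were called higher (background 7.85%) and 10 lower (background 7.89%) of 94. Where edgeR called 0 genes of a list in a direction, the count at an unadjusted p under 0.05 was 5 higher and 8 lower for LXR partners, 3 lower for exporters, 0 lower for ester synthesis and hydrolysis, 1 higher for oxysterol enzymes and 3 lower for uptake receptors. The Wald test of DESeq2 also called 0 in each, except for 2 oxysterol enzyme genes called higher, Cyp7b1 and Cyp8b1, which were highest in GB2-treated replicates 2 and 3, with 1.07 and 0.91 FPKM for Cyp7b1.

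Set in order of level, the members in untreated cells ran Npc2, Lipa, Soat1, Nceh1, Nr1h2, Npc1, Abcg1, Abca1, Nr1h3 and Apoe, from 107.41 to 113.42 FPKM for Npc2 to a mean of 2.82 ± 0.42 FPKM (SD, n = 3) for Apoe. No neighbours in that order overlapped between libraries. In GB2-treated cells Npc2 had the highest mean, 67.7 ± 5.76 FPKM (SD, n = 3), but lay below Apoe in replicates 2 and 3. Lipa went from the second to the fifth place, overlapping with Nr1h2, and Nceh1 from the fourth to the eighth. Abca1 came level with Npc1, at 9.91 to 10.28 against 9.82 to 10.35 FPKM. Apoe had no fixed place, since its libraries ranged from 2.99 to 68.33 FPKM.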

How the data were processed

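Libraries were poly(A)-selected, dUTP-stranded and sequenced as paired ends. Of tools, the submitters' notes list StringTie 2.1.6, HISAT2 2.2.1, cutadapt 1.9, edgeR and DESeq2, and as build mm10. For their roles, the annotation release and use of strand in counting: not given in the sources used here. Estimated counts were deposited by the authors as whole numbers without normalization, beside FPKM values scaled by transcript length and library total. Low estimated counts piled up at multiples of 4, with 952 genes at 4 against 397 at 3 in untreated replicate 1, for an unknown reason, so counts divided by 4 were also fitted. Groups came from the labels. Counts were tested with edgeR 4.0.16 (TMM, default filter, no covariate) in R 4.3.3, with thresholds as in the study. Standard errors were taken as log2 change over √F, and 95% intervals from the normal distribution. Counts were simulated for 16104 genes with the spread of the untreated libraries only. There 87.9% of 3-fold and 0% of 1.5-fold changes, which lie under the fold threshold, were called. There were 0 errors of sign, and 6 unchanged genes were called. The treated libraries differed more among themselves than the untreated ones, so these rates need not hold for genes such as Apoe. FPKM gave levels, ratios and, with limma 3.58.1, alternative tests. DESeq2 1.42.0 was a further alternative. Libraries of each pair differed by more than sampling noise. Coordinates are mm10, and exon overlaps are from GENCODE M21.

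Members and lists were chosen with earlier results of these data known. Named were all members, up to 4 called genes per list with the largest change and at least 1 FPKM (if none, the 2 most abundant), and the 5 profiles most like Apoe and Abca1. Of the list genes, 6 matched no row.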

Additional observations from a re-analysis of the deposited data

How the results depend on the processing

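Nceh1 and Lipa were called lower in all 16 alternatives, and Abcg1, Soat1, Npc1 and Npc2 kept their direction and stayed short of the fold threshold in all 16. The count of members called lower was 2, and 3 without untreated replicate 2 or without GB2-treated replicates 2 and 3, because Nr1h3 joined. The count called higher, 2, depended on Abca1 and Apoe. It was 1 with library totals, 1 without the expression filter, 1 with limma on log2(FPKM + 0.1), 1 with GB2-treated replicates 2 and 3 left out together, and 0 with limma on log2(FPKM + 1), with or without its filter. Leaving out single libraries gave 0 to 2.

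Over all genes, 2300 were called higher and 1324 lower. With limma on log2(FPKM + 1) these counts were 603 and 611, without its filter 598 and 614, and with log2(FPKM + 0.1) 860 and 960. With GB2-treated replicates 2 and 3 left out they were 1432 and 1440. Leaving out single libraries gave 1486 to 3728 higher, the highest without GB2-treated replicate 1, and 1217 to 1530 lower. Of all calls 63.5% were higher, 47.3% to 49.7% with limma and 49.9% without GB2-treated replicates 2 and 3. The median log2 change of all genes was 0.18 without the filter and 0.15 in DESeq2, against 0.01. The causes were not tested.

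The log2 change of Nr1h2 was -0.01 to 0.11 on leaving out single libraries, negative without untreated replicate 3, and the log2 ratio of Npc1 to Npc2, -0.00, was -0.04 to 0.04, positive without untreated replicate 1 or GB2-treated replicate 1. The other 3 ratios kept their direction. Low counts limit genes such as Abcg4 and Vldlr, not the members.

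Replicate numbers were not used as pairs in the main fit. Deviations from the group means correlated weakly, at 0.039, 0.119 and 0.101 for numbers 1, 2 and 3. Between different numbers they correlated at -0.085 to -0.004, so each library correlated best with its own number. Whether the libraries were paired is not settled by these values. With the replicate number as a block, 1 member was called higher, Abca1, since Apoe had a log2 change of 3.36 (edgeR FDR = 0.059), and 2 lower, with 1776 genes higher and 1264 lower.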
